A study of Mus musculus with 22 samples.

Results

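Interferon-stimulated genes are the genes that a cell switches on when interferon binds its receptors, and 36 of them were followed here in colon epithelial cells of mice that lacked or carried the polymeric immunoglobulin receptor, with and without antibiotics. The members were a list of 36 gene symbols induced by type I or type II interferon, and every probe that the array annotation gives to one of them was taken. A named probe was found for 35 of the 36 genes, 66 probes of the 45281 on the array, and Ifi44 was not analysed here. Of these, 52 probes of 31 genes passed the filter on low signal, among 10705 genes tested in all. The other 4 genes (Ifit1, Xaf1, Trim30a and Iigp1) had only probes at or near the background: none of their 8 probes was detected on more than 1 of the 22 arrays.

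The 22 Illumina bead arrays fell into 4 groups. KO_antibiotic (6 arrays) and KO_untreated (6 arrays) came from mice without this receptor (pIgR-KO), which carries antibodies across the epithelium into the gut. WT_antibiotic (5 arrays) and WT_untreated (5 arrays) came from wild-type mice. Mice of all 4 groups were male BALB/c animals of 6 to 10 weeks, and the antibiotic groups were treated for 17 days with drugs that the labels do not name. The cells were shaken off opened colon with EDTA, with no sorting step named. Whether KO and WT mice were littermates or shared cages, and whether an array held RNA of 1 mouse or of several, the labels do not state. The p-values therefore reflect only how far these samples spread. The design sets the missing receptor and the antibiotic treatment, alone and together, against untreated wild-type epithelium.

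Interferon signals through paired receptors to kinases of the Jak family and from there to transcription factors that enter the nucleus. Type I interferons, made by many cells, and type III interferons, to which gut epithelium is especially responsive, lead to a complex with Stat2 and Irf9 that binds the interferon-stimulated response element (ISRE). Type II interferon, made by lymphocytes, acts on the gamma-activated site (GAS) and switches on Irf1, which binds ISRE-like sequence. In the gut, bacterial products and interferon from neighbouring immune cells keep a low level of this programme in place without infection.

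The promoters of the members carried the ISRE letters far more often than promoters at large. In the RefSeq windows of 250 bases before to 50 after each gene's start (build GRCm38.p6), 27 of the 36 members had a window, 32 windows in all. The letters GAAANNGAAA, searched on both strands with overlapping matches counted, were in 17 of the 32 windows (53.1%) and in 3.44% of all 32851 windows. The GAS letters TTCNNNGAA, which read the same on both strands, were in 7 member windows (21.9%) and in 8.3% of all windows. A match is a description of the letters in the window and shows no binding. The stretches shown are those of Oas1a and Igtp, the members called in a comparison whose window held ISRE letters, and of 5 other members from the IFIT and Isg15 system, the effectors and the GTPases. Capitals mark ISRE letters on either strand, and in Oas1a and Igtp the first run of capitals is the GAS. They lie at chr4:156200855-156200916 (Isg15, minus strand), chr5:120907526-120907643 (Oas1a, minus), chr19:34583353-34583436 (Ifit3, plus), chr12:26456543-26456592 (Rsad2, minus), chr11:58199491-58199551 (Igtp, plus), chr11:48871421-48871470 (Irgm1, minus) and chr3:142620584-142620633 (Gbp2, plus), all upstream of the gene's start.
Isg15: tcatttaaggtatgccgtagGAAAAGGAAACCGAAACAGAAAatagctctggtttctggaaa
Oas1a: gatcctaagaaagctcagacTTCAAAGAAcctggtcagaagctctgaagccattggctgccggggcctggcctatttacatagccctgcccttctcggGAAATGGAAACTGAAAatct
Ifit3: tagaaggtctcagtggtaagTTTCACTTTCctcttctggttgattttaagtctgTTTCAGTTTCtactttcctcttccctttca
Rsad2: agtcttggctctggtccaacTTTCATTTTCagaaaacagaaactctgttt
Igtp: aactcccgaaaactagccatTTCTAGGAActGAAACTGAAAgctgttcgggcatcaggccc
Irgm1: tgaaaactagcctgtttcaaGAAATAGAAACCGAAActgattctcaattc
Gbp2: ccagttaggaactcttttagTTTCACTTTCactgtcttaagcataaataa
Isg15 held 3 overlapping ISRE matches, Oas1a, Ifit3 and Irgm1 held 2 each, and Rsad2, Igtp and Gbp2 held 1. The windows of Ifit2 and Ifi47 held no ISRE letters, 1 window of Ifit2 held the GAS letters at -241 from the start, and Zbp1 is named only.

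Levels are log2 values after background correction and quantile normalisation, a gene is represented by its brightest tested probe, and a gene is called where limma's Benjamini-Hochberg adjusted p over all 19993 tested probes is under 0.05. Between 15975 and 18388 probes were detected per array. Pigr, the disrupted gene, averaged 9.35 ± 0.60 in KO_antibiotic and 9.99 ± 0.74 in KO_untreated (SD, n = 6 each), against 11.55 ± 0.27 in WT_antibiotic and 11.85 ± 0.37 in WT_untreated (SD, n = 5 each), lower in KO on every array. Of 18 epithelial markers 17 were tested, and their summed linear level was 98892 to 127015 in KO_antibiotic, 104027 to 115677 in KO_untreated, 106322 to 122586 in WT_antibiotic and 102663 to 117138 in WT_untreated. By limma, 3 of the 17 rose with antibiotics in KO (Cdhr5, Car2 and Tff3), against 6.16% of all genes. There 2 fell (Krt18 and Dclk1), against 8.6%. In WT 1 fell (Krt18) and none rose, against 2.91% and 2.66%. Untreated, 2 were higher in KO than in WT (Krt18 and Dclk1) and none lower, against 6.27% and 5.74%. The calls with antibiotics of Car2, Tff3 and Dclk1 in KO, and of Krt18 in WT, were lost without some single arrays. Leukocytes are a second source of interferon-stimulated transcripts, and 12 of 30 leukocyte markers were tested. The natural killer marker Ncr1 and the dendritic cell marker Itgax were detected on 0 of 22 arrays. The T cell marker Cd3e was detected on 22 arrays by each of its probes, and the B cell marker Cd79b on 21 and 20. A probe of Siglech, a marker of plasmacytoid dendritic cells, was detected on 22 arrays, and its other probes on 0. Without the mast cell protease Mcpt1, the tested leukocyte markers summed to 1132 to 1616 in KO_antibiotic, 1216 to 1865 in KO_untreated, 779 to 2289 in WT_antibiotic and 1141 to 1778 in WT_untreated. In these bulk samples a smaller number of responding cells and less RNA per cell cannot be told apart.

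**Figure D1:**
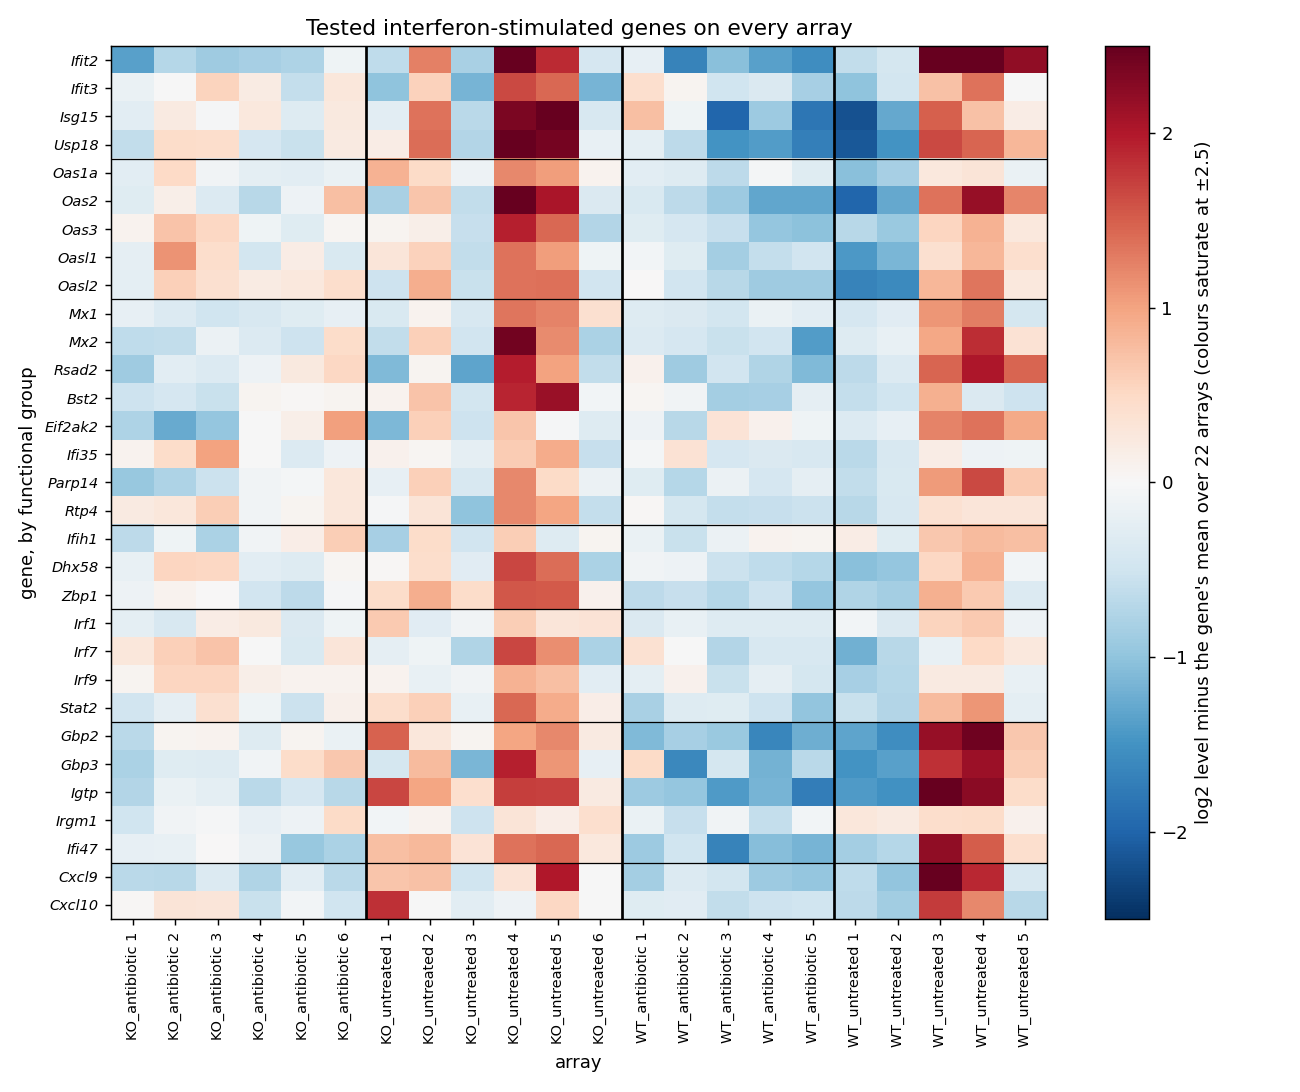
Levels of the 31 tested interferon-stimulated genes (rows, by functional group) on 22 arrays (columns, by group), as log2 level minus each gene's mean over all arrays. KO_untreated 4 and 5 and WT_untreated 3 and 4 are red across most genes, and the antibiotic groups hold no such array.

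The genes moved as a block, and most of the movement was between untreated arrays of the same group. With each gene centred on its mean over the 22 arrays, the mean of the 31 genes was lowest at -0.44, median 0.28 and highest at 1.42 in KO_untreated. In WT_untreated it was -0.88, -0.76, 1.14, 1.18 and 0.29. With antibiotics the range was -0.38 to 0.10 in KO_antibiotic and -0.78 to -0.22 in WT_antibiotic. KO_untreated 4 and 5 and WT_untreated 3 and 4 were thus the 4 highest arrays, 2 of each genotype, while WT_untreated 1 was the lowest of all 22 and WT_untreated 2 the third lowest. After the group means were removed, the 465 pairs of genes had a median correlation of 0.714 over the 22 arrays, and 99.1% were above 0. These correlations are a description, since all genes share the same arrays.

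**Figure D2:**
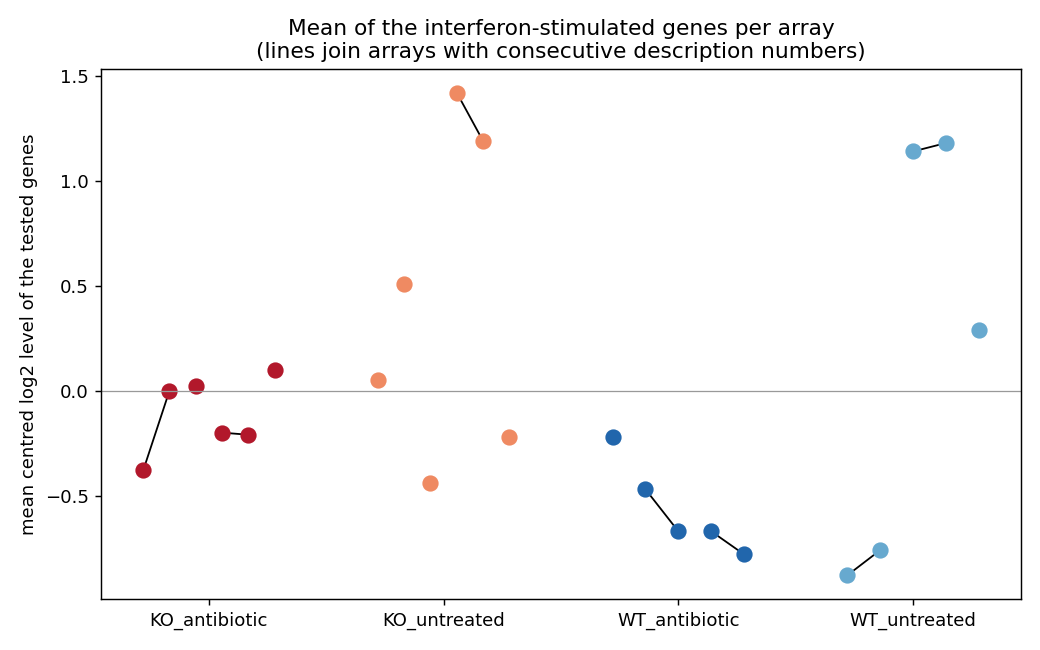
Mean centred log2 level of the 31 tested genes for each array (1 point per array, by group); lines join arrays of a group whose description numbers are consecutive. Untreated arrays range from -0.88 to 1.42, antibiotic arrays from -0.78 to 0.10, and the 7 joined pairs differ by 0.01 to 0.38, KO_antibiotic 1 and 2 by the most.

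The spread between arrays was smaller with antibiotics in both genotypes. The median SD between arrays over the 31 genes was 0.382 in KO_antibiotic against 0.778 in KO_untreated, and 0.321 in WT_antibiotic against 0.896 in WT_untreated. Over all tested genes the same medians were 0.309 in KO_antibiotic against 0.260 in KO_untreated, and 0.274 in WT_antibiotic against 0.251 in WT_untreated. The SD was smaller with antibiotics for 30 of the 31 genes in KO mice, where 34.4% of all genes had a smaller SD, and for 29 of the 31 in WT mice, where 44.3% did. No test was made of these counts, since the genes move together and are not independent. They were 28 to 31 in KO and 28 to 30 in WT when each array was left out in turn. Eif2ak2, the kinase that halts translation on double-stranded RNA, was the exception in KO mice with an SD of 0.851 in KO_antibiotic against 0.691 in KO_untreated. Irgm1, an immunity-related GTPase of autophagy, and Ifi35, an interferon-induced protein, were the exceptions in WT mice, with SDs of 0.266 and 0.336 in WT_antibiotic against 0.148 and 0.327 in WT_untreated.

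**Figure D3:**
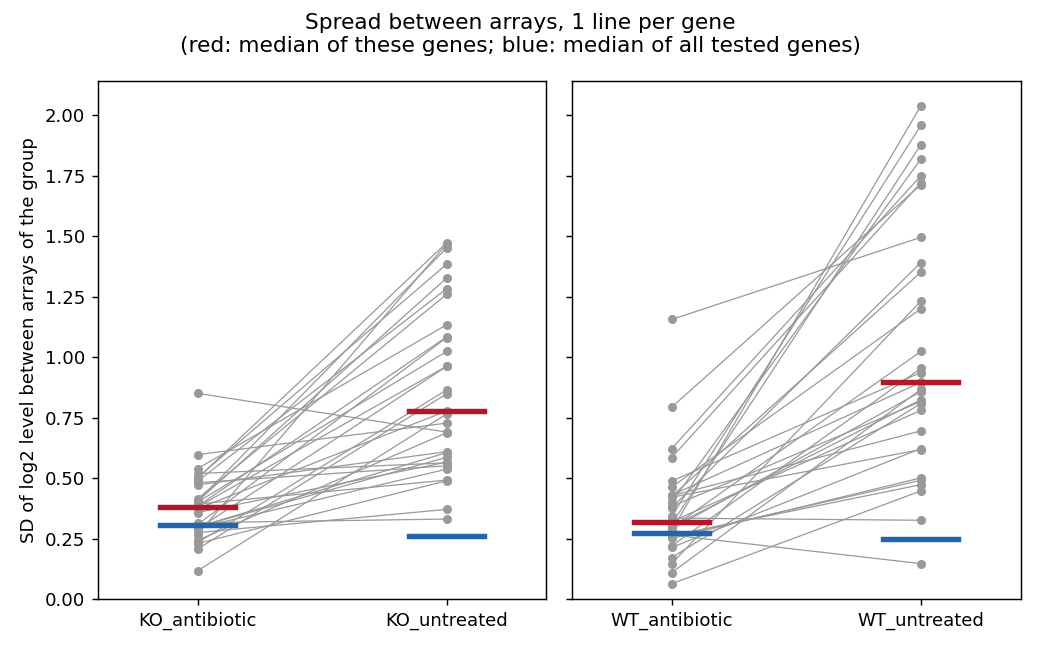
SD of the log2 level between arrays of a group for each of the 31 tested genes (1 line per gene), with the median of these genes in red and of all tested genes in blue. Most lines are higher at the untreated end in both genotypes, while the blue medians lie between 0.251 and 0.309 in all 4 groups.

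The descriptions of the samples hold a number, and untreated arrays of a group with consecutive numbers were alike in these genes. In the untreated groups the 3 such pairs differed by 0.04 to 0.23 in the mean of the 31 genes, with a median of 0.13. The other 22 untreated pairs within a group differed by 0.22 to 2.07, with a median of 1.10. The pairs were KO_untreated 4 and 5, WT_untreated 1 and 2, and WT_untreated 3 and 4. Over all tested genes, with group means removed, the arrays of these pairs correlated at -0.01 to 0.39 and those of the other pairs at -0.59 to 0.08. Removing the group means by itself pulls such correlations below 0. With antibiotics the likeness was less clear: KO_antibiotic 1 and 2 differed by 0.38 and KO_antibiotic 4 and 5 by 0.01, in a group that ranged from -0.38 to 0.10. WT_antibiotic 2 and 3 differed by 0.20 and WT_antibiotic 4 and 5 by 0.11. KO_untreated 1 and 2 carry the same number, 53, with a suffix only on the second, and their means were 0.05 and 0.51. What the numbers stand for is not stated, and whether neighbouring numbers shared a cage, a litter or a day was not tested.

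Some members followed the block less closely. Usp18, the protease that removes Isg15 from proteins and damps the type I receptor, had the highest correlation with the mean of the other members, 0.97 over the 22 arrays with group means removed. The lowest were Irgm1 at 0.38, Ifih1 (the RNA sensor MDA5) at 0.47, Cxcl10 at 0.48 and Irf1 at 0.55. Outside the list, the 10 genes most like the mean of 13 tested type I members had correlations of 0.90 to 0.93. They were Apol9a, Apol9b, Ifi44l, Ifi27l2a, Cmpk2, Ddx58 (the RNA sensor RIG-I), Helz2, Dtx3l, Oas1g and Trim30d.

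Without antibiotics, 2 of the 31 genes rose in KO mice and none fell, against 6.27% higher and 5.74% lower among all 10705 genes, and 10.9% of all probes called. The genes that rose were Zbp1 and Oas1a. No member's groups were without overlap, against 4.82% of all genes higher and 5.4% lower without overlap. Oas1a makes the 2-5A messenger that activates RNase L. Its levels were 5.40, 6.20 and 6.74 (lowest, median and highest) in KO_untreated, and 4.49, 4.70, 5.79, 5.85 and 5.37 in WT_untreated. The groups overlapped: WT_untreated 3 and 4 lay above the lower KO arrays. The log2 difference was 0.88 ± 0.25 (SE), adjusted p = 0.0297. Oas1a has close relatives such as Oas1g, and whether its probe also binds them was not tested.

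Zbp1 senses nucleic acid in the Z form and can trigger necroptosis. Its levels were 6.35, 6.94 and 7.81 in KO_untreated, and 5.51, 5.41, 7.15, 6.92 and 5.91 in WT_untreated. The same WT_untreated arrays 3 and 4 overlapped the KO group. The log2 difference was 0.91 ± 0.29, adjusted p = 0.0468 in limma. The median over the 31 genes was 0.31, with 21 above 0, beside a median of 0.05 over all genes. Isg15, the ubiquitin-like modifier, was 6.96, 8.19 and 10.25 in KO_untreated and 5.47, 6.36, 9.13, 8.38 and 7.82 in WT_untreated, and its difference of 1.04 ± 0.63 did not pass (adjusted p = 0.280). Bst2 (tetherin, which holds virus particles at the cell surface) was 4.70, 5.56 and 7.32 in KO_untreated and 4.56, 4.66, 6.04, 4.79 and 4.64 in WT_untreated, and differed by 0.94 ± 0.37, adjusted p = 0.0992. It was detected on 5 of 6 KO_untreated and 2 of 5 WT_untreated arrays. Irf9, the DNA-binding partner of Stat2, was 8.44, 8.70 and 9.56 in KO_untreated and 7.87, 7.97, 8.92, 8.92 and 8.52 in WT_untreated, a difference of 0.45 ± 0.22 with adjusted p = 0.181. Rsad2 (viperin), Eif2ak2, Ifit2 and Ifih1 were among the 10 genes below 0, at -0.78, -0.72, -0.69 and -0.50, with none past the threshold.

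Both calls without antibiotics depended on single arrays and on the shared estimate of the spread. Oas1a lost its call without WT_untreated 1, 2 or 5 (adjusted p = 0.0856, 0.0751 and 0.0520) or KO_untreated 1, 4 or 5 (0.0713, 0.0639 and 0.0712). Zbp1 lost its call without any of 13 arrays. Without WT_untreated 1, 2 or 5 its adjusted p was 0.126, 0.122 and 0.104, and without KO_untreated 1, 2, 4 or 5 it was 0.0635, 0.0646, 0.0974 and 0.110. Without WT_antibiotic 1, 3, 4 or 5 it was 0.0527, 0.0508, 0.0539 and 0.0538, and without KO_antibiotic 1 or 4 it was 0.0537 and 0.0512. In a fit of the 2 untreated groups alone the adjusted p was 0.0513 for Oas1a and 0.0848 for Zbp1. In that fit 0 of 31 genes were called, against 17.2% of all genes, and 3 had an unadjusted p under 0.05. A suffix stands in the description of KO_untreated 2 to 6 and of no array outside that group. With KO_untreated represented by the 1 array without it, the arm has no spread of its own and is assumed to vary like the other groups, so that fewer calls follow from its size alone. There 0 members were called, Oas1a differed by 1.16 and Zbp1 by 0.53, and the median over the 31 genes was 0.04.

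**Figure D4:**
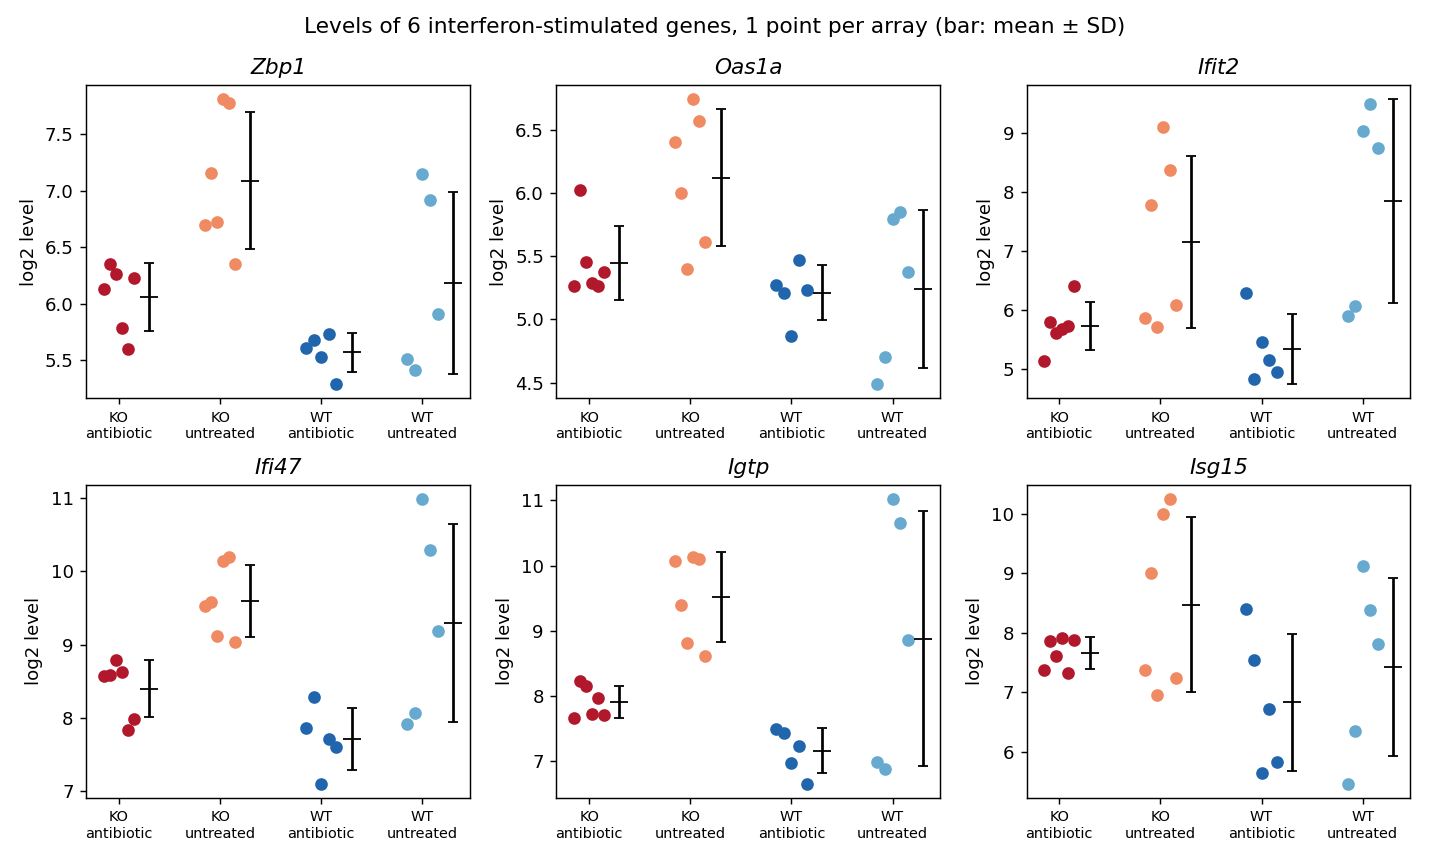
Log2 level of Zbp1, Oas1a, Ifit2, Ifi47, Igtp and Isg15 on each array (1 point per array), with the mean ± SD of each group (n = 6 for KO groups, n = 5 for WT groups). The first 5 are the genes called in a comparison, and Zbp1, Igtp and Ifi47 show no overlap between KO_antibiotic and KO_untreated.

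In KO mice 3 of the 31 genes fell with antibiotics, Zbp1, Igtp and Ifi47, and none rose, against 8.6% lower and 6.16% higher among all genes, and 12.4% of all probes called. Zbp1 was 5.60, 6.18 and 6.35 in KO_antibiotic, against 6.35, 6.94 and 7.81 in KO_untreated. To 2 decimals the groups met at 6.35, and they did not overlap. The log2 difference was -1.03 ± 0.28, adjusted p = 0.0150 in limma, and a second Zbp1 probe fell by 1.09 (adjusted p = 0.00405), while the third, at -0.88, had an adjusted p of 0.0582. The Zbp1 call held with any of the 22 arrays left out, with adjusted p-values of 0.00738 to 0.0463.

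Igtp and Ifi47 are immunity-related GTPases, which type II interferon induces strongly and which act on membranes around intracellular pathogens. Igtp was 7.66, 7.85 and 8.23 in KO_antibiotic, against 8.61, 9.73 and 10.13 in KO_untreated. Every antibiotic array lay below every untreated one. The log2 difference was -1.61 ± 0.52, adjusted p = 0.0412. Ifi47 was 7.83, 8.58 and 8.79 in KO_antibiotic, against 9.03, 9.56 and 10.20 in KO_untreated, again without overlap. Its difference was -1.20 ± 0.38, adjusted p = 0.0408. Oas1a was 5.26, 5.33 and 6.02 in KO_antibiotic against 5.40, 6.20 and 6.74 in KO_untreated, and its difference of -0.68 ± 0.24 did not pass (adjusted p = 0.0667). Ifit2 was 5.15, 5.71 and 6.41 in KO_antibiotic against 5.71, 6.93 and 9.10 in KO_untreated, with a difference of -1.42 ± 0.59 and adjusted p = 0.134. Groups without overlap in this direction were seen for these 3 genes and for 4.66% of all genes. The median over the 31 genes was -0.40, with 27 below 0, beside a median of 0.01 over all genes, of which 48.6% were below 0.

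The calls of Igtp and Ifi47 were lost without single arrays, though the groups did not overlap. For Igtp the adjusted p was 0.0820, 0.0610, 0.0906 and 0.0881 without KO_untreated 1, 2, 4 and 5, and 0.0770, 0.0516, 0.0513, 0.0737, 0.0569 and 0.0690 without KO_antibiotic 1 to 6. For Ifi47 it was 0.0582, 0.0648, 0.0933 and 0.0946 without KO_untreated 1, 2, 4 and 5, and 0.0581, 0.0533, 0.0548, 0.0840 and 0.0808 without KO_antibiotic 1, 2, 4, 5 and 6. When only the KO groups were fitted by limma, which leaves out the wide spread of WT_untreated, 5 genes fell and none rose. They were Zbp1, Gbp2, Igtp, Ifi47 and Cxcl9, with adjusted p-values of 0.0129 for Zbp1, 0.000973 for Igtp and 0.00323 for Ifi47. In that fit 12.5% of all genes were called, a share that counts both directions. With KO_untreated represented by its 1 array without a suffix, an arm with no spread of its own, none was called and the median over the 31 genes was 0.03, on the other side of 0.

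In WT mice Ifit2 and Ifi47 fell with antibiotics and none of the 31 genes rose, against 2.91% lower and 2.66% higher among all genes, and 4.75% of all probes called. Ifit2 binds translation factors and viral RNA. It was 6.30, 4.84, 5.47, 5.16 and 4.95 in WT_antibiotic, against 5.90, 6.07, 9.03, 9.49 and 8.74 in WT_untreated. WT_untreated 3, 4 and 5 stood far above all other arrays of the 2 groups, and WT_untreated 1 and 2 lay below the highest antibiotic array. The log2 difference was -2.50 ± 0.65, adjusted p = 0.0277 in limma, and its second probe fell by 2.46 (adjusted p = 0.0407).

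Ifi47 was 7.86, 8.28, 7.10, 7.71 and 7.60 in WT_antibiotic, against 7.91, 8.06, 10.99, 10.29 and 9.19 in WT_untreated. Here too WT_untreated 1 and 2 lay within the antibiotic range. The log2 difference was -1.58 ± 0.42, adjusted p = 0.0309. Of the 31 genes 29 were below 0, beside 47.9% of all genes, and their median was -0.60 beside 0.02. Zbp1 was 5.61, 5.68, 5.53, 5.73 and 5.29 in WT_antibiotic, a difference of -0.61 ± 0.30 that did not pass (adjusted p = 0.276). Igtp differed by -1.72 ± 0.57 and Gbp2, a guanylate-binding GTPase, by -1.63 ± 0.54, with adjusted p-values of 0.0816 and 0.0832. Irgm1 was 12.06, 11.66, 12.16, 11.64 and 12.17 in WT_antibiotic, against 12.52, 12.46, 12.67, 12.70 and 12.35 in WT_untreated, a difference of -0.60 ± 0.18 with adjusted p = 0.0517. Irgm1 and Mx2 were the 2 genes whose groups did not overlap, as for 3.26% of all genes in this direction, and Irgm1 was called in the fit of the WT groups alone (adjusted p = 0.0405).

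The WT calls also rested on single arrays. For Ifit2 the adjusted p was 0.0932, 0.0939 and 0.0582 without WT_untreated 3, 4 and 5, and 0.0656, 0.0641 and 0.0685 without WT_antibiotic 2, 4 and 5. For Ifi47 it was 0.109 and 0.104 without WT_untreated 3 and 4, and 0.0570, 0.0576, 0.0664 and 0.0703 without WT_antibiotic 1, 3, 4 and 5. Without WT_untreated 2, Igtp was called too (adjusted p = 0.0166). In the fit of the WT groups alone Ifi47 had an adjusted p of 0.0779.

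Mx1, the dynamin-like GTPase that blocks influenza virus, was detected on 4 of 6 KO_untreated and 2 of 5 WT_untreated arrays and on no antibiotic array. For a probe that no array of a group detected, the fold is taken against the lowest detected signal. Untreated arrays that did not detect Mx1 entered at their own values, so the fold is an estimate and no guaranteed minimum. It was 1.37-fold lower in KO_antibiotic than in KO_untreated (limma adjusted p = 0.142). For WT_antibiotic against WT_untreated it was 1.26-fold lower (adjusted p = 0.367). Neither passed, and the 95% interval of the log2 difference in WT, -1.25 to 0.12, included no change. Cxcl9, a type II interferon target that draws T cells, was 4.53, 4.62 and 5.03 in KO_antibiotic and 4.79, 5.81 and 7.29 in KO_untreated. In WT_antibiotic it was 4.44, 4.95, 4.84, 4.39 and 4.32, and in WT_untreated 4.66, 4.31, 9.06, 7.18 and 4.90. Its differences with antibiotics were -1.11 ± 0.55 in KO (adjusted p = 0.220) and -1.43 ± 0.60 in WT (adjusted p = 0.181), and the 2 highest WT_untreated arrays were again 3 and 4.

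**Figure D5:**
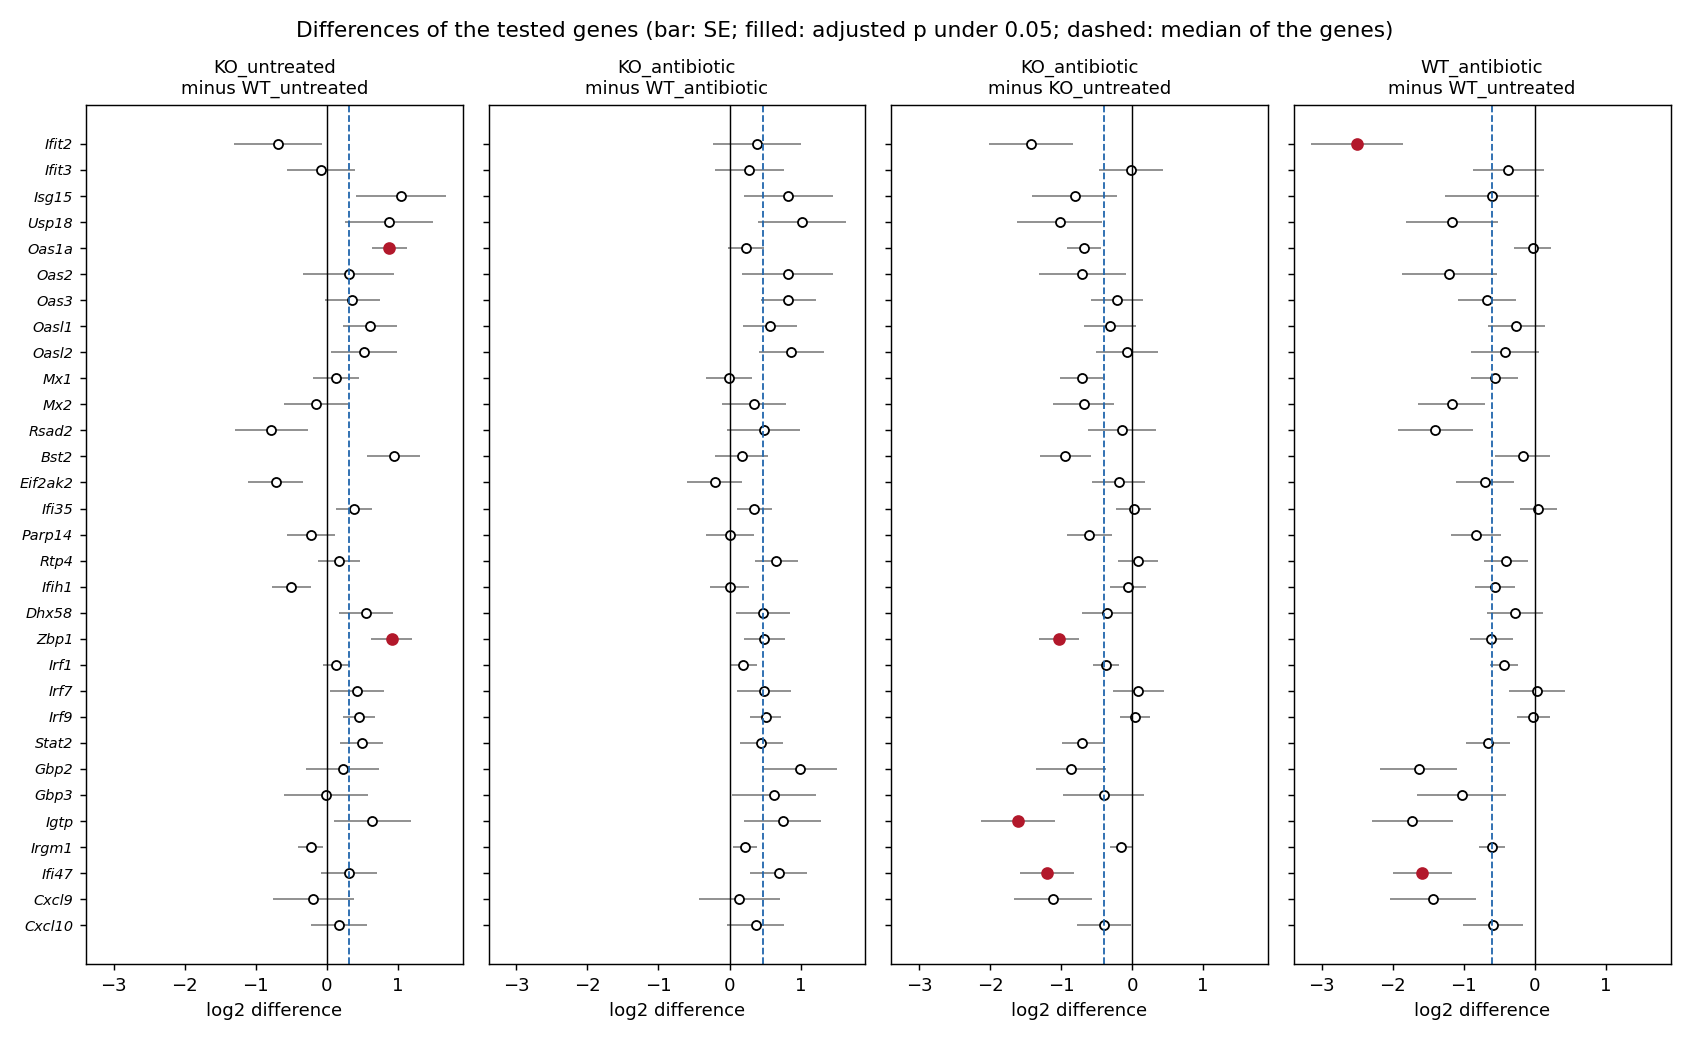
Log2 difference ± SE of the 31 tested genes in 4 comparisons, filled where the adjusted p is under 0.05, with the median of the 31 genes dashed. The medians are 0.31, 0.47, -0.40 and -0.60 in the 4 panels, with 2, 0, 3 and 2 genes filled.

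Under antibiotics no gene was called between KO and WT, by limma, where 0% of all genes were called higher and 0.0187% lower and 0.03% of all probes were called, and 3 of the 31 had an unadjusted p under 0.05. Of the 31 genes 28 were above 0, with a median of 0.47 beside 0.01 over all genes, of which 46.9% were below 0. Those with the smallest p were Irf9 at 0.51 ± 0.22, Rtp4, a receptor-transporting protein, at 0.66 ± 0.30, and Oas3 at 0.83 ± 0.39, each with an adjusted p of 1. Irf9 was 8.76, 8.80 and 9.24 in KO_antibiotic and 8.44, 8.80, 8.14, 8.47 and 8.25 in WT_antibiotic, and Rtp4 5.75, 6.09 and 6.45 in KO_antibiotic and 5.86, 5.40, 5.25, 5.26 and 5.31 in WT_antibiotic. A single WT_antibiotic array overlapped the KO group for each, the second for Irf9 and the first for Rtp4. Oas3 was 5.06, 5.43 and 6.08 in KO_antibiotic and 5.05, 4.94, 4.77, 4.39 and 4.34 in WT_antibiotic. Gbp2 was 7.87, 8.49 and 8.62 in KO_antibiotic and 7.43, 7.71, 7.61, 6.91 and 7.31 in WT_antibiotic, a difference of 0.99 ± 0.52. Oas3, Gbp2 and Igtp were higher in KO with no overlap, as were 0.206% of all genes. When the antibiotic groups were fitted alone, which leaves out the wide untreated groups, none of the 31 was called, against 0.0187% of all genes. Of the 31 genes 13 had an unadjusted p under 0.05 in that fit. The share of all genes at that unadjusted threshold was not taken, so this count has no background beside it.

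The antibiotic effect was not shown to differ between the genotypes for any member. In the interaction, the KO antibiotic effect minus the WT one, 0 of the 31 genes were called by limma and 0 had an unadjusted p under 0.05, and 0% of all genes and 0.01% of all probes were called. The median over the 31 genes was 0.23, and below 0 without WT_untreated 3 or 4 (-0.05 without the last). The largest positive value was that of Rsad2, an enzyme that makes a chain-terminating nucleotide, at 1.26 ± 0.72, and the largest negative one that of Bst2 at -0.77 ± 0.53. Rsad2 was 7.15, 7.84 and 8.56 in KO_antibiotic and 6.71, 7.77 and 10.00 in KO_untreated, and 8.14, 7.16, 7.56, 7.29 and 6.93 in WT_antibiotic and 7.37, 7.70, 9.49, 10.06 and 9.48 in WT_untreated. For Zbp1 the interaction was -0.42 ± 0.41 with a 95% interval of -1.27 to 0.43, and for Ifit2 1.09 ± 0.88 with an interval of -0.74 to 2.91.

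By role, the antibiotic differences ran as follows. The 5 tested GTPases had a median of -0.86 in KO and -1.58 in WT, and the 4 tested genes of the IFIT and Isg15 system had -0.91 in KO and -0.88 in WT. The 5 OAS genes had -0.31 in KO and -0.42 in WT. Among the transcription factors Irf7, which amplifies type I responses, differed by 0.09 in KO and 0.03 in WT and Irf9 by 0.04 in KO and -0.02 in WT, while Stat2 differed by -0.70 in KO and -0.66 in WT (adjusted p = 0.125 and 0.253). No difference between these groups of genes was tested. The brightest genes of most groups also had wider ranges untreated than with antibiotics, with Irgm1 in both genotypes and Eif2ak2 in KO as exceptions. Eif2ak2 ranged over 8.21 to 10.48 in KO_antibiotic and 8.33 to 10.15 in KO_untreated. Usp18 ranged over 7.76 to 8.82 in KO_antibiotic, 7.64 to 10.94 in KO_untreated, 6.67 to 8.13 in WT_antibiotic and 6.25 to 10.02 in WT_untreated. Oasl2 ranged over 10.20 to 11.05, 9.89 to 11.82, 9.55 to 10.46 and 8.77 to 11.78 in the same order of groups. Dhx58, the regulator of RNA sensing, ranged over 7.65 to 8.50, 7.17 to 9.63, 7.25 to 7.88 and 6.93 to 8.84, and Irf1 over 10.92 to 11.58, 11.06 to 11.98, 10.98 to 11.14 and 10.96 to 11.99.

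The inducers themselves were mostly below detection. Of 39 probes for interferons and interferon-inducing cytokines 24 were detected on 0 of 22 arrays, among them those of Ifng, Ifnb1, Ifnk and Ifnl3. The filter was passed by 9 of the 39, for Ifna1, Ifna6, Ifna15, Ifnab, Ifne, Ifnz, Il12a and Il18. These 8 genes had a median antibiotic difference of 0.04 in KO and 0.02 in WT. Only Il18 was called, lower in KO_untreated than in WT_untreated, against 5.74% of all genes lower. Ifnar1 was not tested. Of 5 tested receptor genes none was called in any comparison, in limma. Ifngr1, the ligand-binding chain of the type II receptor, differed with antibiotics by 0.44 ± 0.15 in KO and 0.47 ± 0.17 in WT, opposite in sign to most of the members (adjusted p = 0.0647 and 0.116). Ifnlr1, the type III receptor chain, differed by 0.22 ± 0.15 in KO and 0.21 ± 0.16 in WT. Ifnar2 differed with antibiotics by -0.11 ± 0.12 in KO and 0.09 ± 0.13 in WT, and Ifngr2 by 0.47 ± 0.32 in KO and 0.09 ± 0.35 in WT. In each of 3 comparisons 1 receptor gene had an unadjusted p under 0.05, and in the other two none had.

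Cgas and Irf8, which act upstream of interferon, were lower with antibiotics in both genotypes. Of 16 tested genes for the induction of interferon, 3 fell and 1 rose in KO, against 8.6% lower and 6.16% higher among all genes, and 3 fell and none rose in WT, against 2.91% lower and 2.66% higher. Cgas, the DNA sensor, fell by 0.96 in KO and by 0.97 in WT (adjusted p = 0.000668 and 0.00537), and both calls held with each array left out. It was 5.76, 6.50 and 6.78 in KO_antibiotic against 7.05, 7.46 and 7.63 in KO_untreated, and 6.13 to 7.10 in WT_antibiotic against 7.27 to 7.85 in WT_untreated, with no overlap in either genotype. Irf8, a factor of interferon-producing cells, fell by 0.75 in KO and by 0.72 in WT (adjusted p = 0.00378 and 0.0250), the WT call being lost without any of 4 arrays (highest adjusted p = 0.0918, without WT_untreated 3). Sting1, the adaptor of Cgas, fell in KO by 0.79 (adjusted p = 0.0152), and Tlr3, a receptor for double-stranded RNA, fell in WT by 0.73 (adjusted p = 0.0459, up to 0.143 without WT_untreated 3). Irf2 was the one of the 16 that rose in KO, by 0.56 (adjusted p = 0.0278, up to 0.0708 without KO_untreated 4). Among 10 tested genes of Jak-Stat signalling 2 fell with antibiotics in KO and none rose, against 8.6% lower and 6.16% higher among all genes. They were Socs3, a feedback inhibitor, by 1.66 (adjusted p = 0.00194), and Stat3, by 0.38 (adjusted p = 0.0423, up to 0.117 without KO_untreated 5). None of the 10 was called with antibiotics in WT, against 2.91% lower and 2.66% higher. Without antibiotics 1 of the 16 was higher in KO, Mavs, the adaptor of RNA sensors, by 0.55 (adjusted p = 0.0477). Of the 10 Jak-Stat genes 2 fell, the inhibitors Pias1 and Ptpn2, by 0.54 and by 0.71 (adjusted p = 0.0419 and 0.0203). In that comparison 6.27% of all genes were higher and 5.74% lower. The calls of Mavs, Pias1 and Ptpn2 were lost without 15, 8 and 3 of the arrays (highest adjusted p = 0.113 without KO_untreated 5, 0.0935 without KO_untreated 5 and 0.0587 without WT_untreated 5). Ptpn2 in KO_untreated (4.23 to 4.73) and Sting1 in KO_antibiotic (4.36 to 5.06) lay near the background, which limits their differences. For comparison, Mx1 was 4.32 to 4.62 in KO_antibiotic, where no array detected it.

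A wider list of 50 tested interferon-responsive genes outside the 36 also held more falls than rises with antibiotics. In KO 7 fell and 1 rose, with a median of -0.26, against 8.6% lower and 6.16% higher among all genes. In WT 8 fell and 1 rose, with a median of -0.37, against 2.91% lower and 2.66% higher. Ifitm1, Ifitm2 and Ifitm3, membrane proteins that block virus entry, fell in both genotypes and were higher in KO than WT without antibiotics. Ifitm2 was 8.81, 9.55 and 9.76 in KO_antibiotic against 10.57, 10.76 and 10.98 in KO_untreated, and 8.71 to 9.65 in WT_antibiotic against 9.71 to 10.25 in WT_untreated. Neither pair overlapped, and KO_untreated lay above WT_untreated on every array. Its log2 difference was -1.34 ± 0.17 in KO (adjusted p = 1.03e-05) and -0.71 ± 0.18 in WT (adjusted p = 0.0262, up to 0.0870 without WT_untreated 3), and 0.83 ± 0.18 for KO_untreated over WT_untreated (adjusted p = 0.00783). Ifitm3 fell by 2.52 in KO and fell by 1.78 in WT (adjusted p = 0.000126 and 0.0195). Its call for KO_untreated over WT_untreated (adjusted p = 0.0222) was lost without any of 3 arrays (up to 0.0622, without WT_untreated 2). Ifitm1 fell by 2.33 in KO and fell by 1.31 in WT (adjusted p = 1.26e-05 and 0.0227). The WT calls of both were lost without WT_untreated 3 (adjusted p = 0.0749 and 0.0839), and whether probes of these near-identical genes bind each other's RNA was not tested. Ifi27 was the gene that rose, by 0.78 in KO and by 0.62 in WT (adjusted p = 0.00110 and 0.0309, the WT value up to 0.107 without WT_untreated 3). Without antibiotics 4 of the 50 rose in KO, Ifitm1 to Ifitm3 and Tor3a, against 6.27% of all genes higher. In the same comparison 3 of the 50 fell, Casp1, Casp4 and Samd9l, against 5.74% of all genes lower. Casp1 fell by 1.40 (adjusted p = 0.0133). The call of Samd9l was lost without either of 2 arrays (adjusted p up to 0.0598, without WT_untreated 4). Casp1, the inflammasome protease, and its substrate Il18, which fell by 1.28 in KO (adjusted p = 0.0390, up to 0.108 without WT_untreated 5), were thus lower in KO_untreated.

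A single leukocyte marker was called in these comparisons. Of the 12 tested, only Mcpt1 was called, higher in KO_untreated than WT_untreated and lower in KO_antibiotic than KO_untreated (3.04 and -3.86, adjusted p = 0.00536 and 7.08e-05). Among all genes 6.27% were called higher in the first comparison and 8.6% lower in the second. A count of 1 among 12 markers is near those shares. With it the markers summed to 1291 to 1649 in KO_antibiotic against 1999 to 3847 in KO_untreated, without overlap, and to 812 to 2386 in WT_antibiotic against 1198 to 2117 in WT_untreated. The 2 KO_untreated arrays highest in interferon-stimulated genes, 4 and 5, had sums of 3347 and 1999, and WT_untreated 3 and 4 had 1625 and 2117. Without Mcpt1 the sums given earlier overlapped in every comparison. A leukocyte marker score, the mean of the standardised log2 levels of the markers, is another measure than the sum: its group means were 0.005 in KO_antibiotic, 0.0333 in KO_untreated, -0.16 in WT_antibiotic and 0.114 in WT_untreated, and KO_untreated 6, with the highest sum of 3847, had -0.71. With group means this close it could move the comparisons little. With it in the fit the same members were called: 2 for KO_untreated against WT_untreated, 3 with antibiotics in KO, 2 with antibiotics in WT and 0 elsewhere. The medians over the 31 genes were 0.31, -0.41 and -0.63 in those 3 comparisons.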

How the data were processed

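The deposited scanner table gives, per the file headers, a mean bead signal per probe and array, an intensity on a linear scale without background subtraction, and a detection p-value. The authors' processed table, a quantile-normalised intensity judged from its identical sorted columns (median 52.0 in each), served as an alternative; the sources used here name no software or genome build. Signals were corrected and quantile normalised with neqc (limma 3.58.1, R 4.3.3, offset 16), giving log2 values from the deposited signals. Probes with detection p under 0.05 on at least 5 arrays entered 1 limma fit over 22 arrays with a mean per group, 5 two-sided contrasts and Benjamini-Hochberg adjustment. Precision is limited by the number of arrays: the median SE over the 31 tested members was 0.389 for the KO against WT contrasts, 0.371 and 0.406 for antibiotics in KO and WT, and 0.55 for the interaction. Names came from the platform annotation (34885 probes with 1 symbol, 18 with several, 10378 with none), updated through RefSeq's GRCm38.p6 gene table, by gene identifier for 34807 and by accession for 11.

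On simulated data over 19993 probes, 87 of 100 log2 changes of 1 and 99 of 100 of 2 were recovered for KO_untreated against WT_untreated, with 14 false calls. The changed probes were drawn at random, with noise independent between probes and the same SD in every group. The members had a median SE of 0.389 in this contrast against 0.176 over all genes, and they moved together. The recovery therefore does not carry over to them. Named are called members, the 4 with the smallest p per contrast, the brightest of each functional group, and some called genes of the other lists. Further genes of those lists were called and are not named. The members and lists were chosen with earlier results of these data known. Alternatives were another background, scaling, source of values, filter, covariates, a replicate block and each array left out; fits of the 2 groups compared, detected probes per array as covariate, the KO_untreated array without a suffix and all alternatives for the SD counts were chosen after seeing the data. Replicate numbers did not pair arrays: 8 of 21 same-number pairs across groups correlated above 0.1 (range -0.35 to 0.53).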

Additional observations from a re-analysis of the deposited data

Results flagged for a closer look

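In 124 sets of 1 gene and 1 group, 6 had an array far from the rest by Dixon's test at the 95% level, where chance gives about 1 in 20. Oas1a was 6.02 in KO_antibiotic 2, where the next array was 5.45. Mx2 was 4.79 in WT_antibiotic 5, below the next at 5.63, and Rtp4 was 5.86 in WT_antibiotic 1, above the next at 5.40. Irf1 was 11.14 in WT_antibiotic 2, where the next was 11.01 and the group's SD 0.0645. Bst2 was 6.04 in WT_untreated 3, above the next at 4.79, and this array was also among the highest for most other members. Cxcl10 was 6.99 in KO_untreated 1, above the next at 5.69.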

How the results depend on the processing

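No called gene changed sign under any alternative, but 2 medians over members did: antibiotics in KO, 0.03 in place of -0.40 with KO_untreated by 1 array, and the interaction, below 0 without WT_untreated 3 or 4 (lowest -0.05, in place of 0.23). Members called in KO_untreated against WT_untreated were 1 (Oas1a) in place of 2 without background correction, with median scaling, with the authors' values and with detected probes per array as covariate, and 0 without the filter, with KO_untreated by 1 array and in the fit of the 2 groups alone. Without the filter, which tests all 45281 probes, 0 members were called in every contrast, and probes called were 982 in place of 2180 between untreated KO and WT and 550 in place of 950 for antibiotics in WT. With KO_untreated by 1 array the counts of probes were 225 for KO against WT, 420 in place of 2478 for antibiotics in KO and 13 in place of 2 for the interaction, members called were 0 for antibiotics in KO and 1 (Ifit2) in WT, and the cause was not tested. The interaction had 0 probes without background correction, with the authors' values and without the filter. In the fit of the KO groups alone 5 members were called in place of 3. Replicate numbers share only a number; with them as a block, 3358 probes were called between untreated KO and WT, Irgm1 was called for antibiotics in WT, members called were otherwise as before, and 4 of 22 arrays correlated best with their own number. With each array left out, members called ranged over 0 to 3 for untreated KO against WT, 0 to 4 for antibiotics in WT, 1 to 5 for antibiotics in KO, and stayed at 0 for KO against WT under antibiotics and for the interaction. Probes called ranged over 856 to 2727, 5 to 12, 411 to 1314, 2052 to 2588 and 1 to 22 in the order untreated KO against WT, KO against WT under antibiotics, antibiotics in WT, antibiotics in KO and interaction, and the medians over members over 0 to 0.57, 0.36 to 0.52, -0.85 to -0.43, -0.70 to -0.28 and -0.05 to 0.56. Slide as a block was not run, as no slide is named. The 4 members with undetected probes give no value, and Mx1, Bst2, Oas3, Cxcl9 and Cxcl10 were detected on only some arrays, which limits their fold changes. To a lesser degree this also holds for Ifih1, detected on 20 of 22 arrays, and for the called genes Oas1a and Ifit2, each detected on 21. Oas1a was detected on 4 of 5 WT_untreated arrays and Ifit2 on 4 of 5 WT_antibiotic arrays.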
